A study of Mus musculus with 38 samples.

Results

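The 3′ UTR segments described here are the exon pieces downstream of the stop codon in coding transcripts, in which footprints (ribosome-protected mRNA fragments) were counted beside those of the coding sequence (CDS). For each gene, the longest transcript with both a 3′ UTR and a CDS was taken, and segments that overlapped a CDS segment of any transcript on the same strand were left out. This left 20564 segments of 19630 genes, of 208317 3′ UTR segments in all, and 18806 of the genes kept a single segment. Another 1521 genes kept none. The rule used annotation alone and no measured value. The median length was 890 nt for the 3′ UTRs and 1158 nt for the CDSs.

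The libraries were made by PL-Ribo-seq, which joins proximity labelling to ribosome profiling, in primary cortical neurons from mid-gestation CD-1 mouse embryos. Lentivirus carried a doxycycline-inducible biotin ligase, either TurboID-PSD95, placed in dendrites by the palmitoylation signal and UTRs of PSD95, or Pan-TurboID, which lacks such elements. Each replicate gave an input, taken from the monosome fraction, and a streptavidin pulldown of the biotinylated complexes from the same fraction. The KCl experiment held 24 libraries, with 3 replicates of input and pulldown for either ligase, at rest or after depolarization by 55 mM KCl over 1 h. The DHPG experiment held 3 inputs and 3 pulldowns of TurboID-PSD95 neurons exposed for 10 min to 100 µM DHPG, which activates mGluR1 and mGluR5 type receptors. The eIF4G2 experiment held 8 TurboID-PSD95 libraries, 2 per group, from resting and KCl-depolarized neurons treated for 72 h with 20 nM siRNA against the initiation factor eIF4G2. Activated cultures were first silenced with tetrodotoxin and AP5, and all received cycloheximide for 2 min before biotin was added. Untreated libraries of the DHPG experiment and control siRNA libraries were not analysed here, so that treatment and experiment cannot be told apart. Tests were made within an experiment, and values from different experiments are set side by side as a description.

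A ribosome is released at the stop codon, and a translating ribosome is therefore not expected in a 3′ UTR. In general, footprints there are known to arise by readthrough of the stop codon, from 80S ribosomes that were not recycled and from other proteins that shield RNA. In neurons, 3′ UTRs are long and carry the elements that hold mRNAs in transport granules, target them to dendrites and bind microRNAs.

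Stretches of 6 genes of the readthrough list are printed first, since a stop codon is the border at which the counts were divided. Each shows the end of the CDS, the stop codon in capitals and the start of the 3′ UTR, read from GRCm38 on the strand of the gene.
Vegfa (chr17:46018843-46018872, minus strand): aagccaaggcggTGAgccaggctgcaggaa
Ago1 (chr4:126439488-126439517, minus strand): atgtacttcgctTGAaggcagaacgctgtt
Opcml (chr9:28920173-28920202, plus strand): ttcatcaagtttTGAtaagaaaccataggt
Mtch2 (chr2:90865256-90865285, plus strand): agaatgttaatcTGAagatgtggggcaggg
Ldhb (chr6:142490422-142490451, minus strand): ctcaaagacctgTGActgccagtctctagg
Vdr (chr15:97857357-97857386, minus strand): aatgagatctccTGAccagggtggcctgca
All 6 ended in TGA, the stop codon of 48.9% of the 19096 genes whose stop was read, and none had CTAG after it, a leaky context found in 10 genes (0.0524%). The mature strands of miR-21a are shown next, whose hairpin lies in the 3′ UTR of Vmp1. That gene gave the smallest p between inputs and pulldowns of the KCl experiment. It met the minimum count in the inputs alone, so that this p is a rank and no support for a difference. Only reads of 25 nt or more were counted, which is longer than either strand, so that the counts are not of the strands as printed. The strands are credited to RefSeq (GRCm38.p6), with the seed, bases 2 to 8, in capitals.
miR-21a-5p (chr11:86584120-86584141, minus strand): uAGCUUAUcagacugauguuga
miR-21a-3p (chr11:86584082-86584103, minus strand): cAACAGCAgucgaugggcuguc

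The 38 libraries held 5906281 to 35643247 counts in all segments, of which 1870389 to 13332537 fell in the CDSs and 16062 to 478699 in the 3′ UTRs used here. Summed over libraries, 3296743 counts in 3′ UTRs stood against 210303792 in CDSs. At least 1 count was found in the 3′ UTRs of 11496 genes, and 8134 genes had none. Replicate 1 of depolarized Pan-TurboID stood apart, since its CDS counts made up 11.3% of the total in the input and 13.6% in the pulldown, against 11.3% to 44.7% over all libraries. Neuron markers summed to 4372 to 8887 CPM over the CDS counts, and astrocyte markers to 265 to 1664, with Gjb6 or S100b at 0 in several sets of libraries. Oligodendrocyte markers summed to 45.2 to 724 and microglia markers to at most 29.3. Astrocyte markers did not exceed 299.9 in any DHPG library and were at least 617 in every library of the other experiments. Oligodendrocyte markers were likewise at most 80.3 in DHPG libraries and at least 125 elsewhere, while neuron markers were at least 7829 there and at most 6902 elsewhere. Microglia markers were 13.5 to 29.3 in the libraries of the eIF4G2 experiment and at most 7.63 in the others. The part of these cells in the results was not tested. In bulk libraries, fewer cells of a type and less RNA per cell cannot be told apart. The count tables do not state whether strand was used, but the data bear on it. Of the 3′ UTR segments that contain an opposite-strand CDS segment with at least 100 counts, 172 of 175 held fewer counts than that CDS, with a median of 2.30%.

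Most 3′ UTR counts lay in 2 genes and in short transcripts nested in them. Tmem38b, which encodes a cation channel of the endoplasmic reticulum, held 1643940 counts, and Lrrc58 held 437938, together 63.1% of all 3′ UTR counts. In Tmem38b, 1643930 counts fell within n-R5s185, a 119-nt annotated 5S rRNA gene at chr4:53860652-53860770 on the plus strand. In Lrrc58, 434976 fell in Gm15725, a 1090-nt processed pseudogene at chr16:37882542-37883631 that matched the Actb mRNA with 91.8% identity over 1133 aligned positions. In total, 133 exon pieces of annotated transcripts without a CDS lay within the 3′ UTRs of 119 genes on the same strand. These pieces are called nested transcripts here, although other exons of a transcript can lie elsewhere. By type of transcript, 48 were of pseudogenes, 30 of miRNAs, 6 of snRNAs, 3 of rRNAs, 3 of snoRNAs, 1 of another small RNA and 42 of other transcripts.

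Among the other nested pseudogenes, Gm10045 in BC004004 was 98.6% identical to Rpl21 and Gm10774 in Usp50 99.5% identical to Polr2l. Reads of such copies and of their parent mRNAs can be exchanged, and how reads with several alignments were handled is not given in the sources used here. These counts were kept in the main values, and the main library-level values are also given without them. Once they were set aside, no gene dominated, and the 20 genes with the most counts held 8.90% of the remainder.

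The share of the nested transcripts differed between libraries. They held 28.5% to 49.1% of the 3′ UTR counts in the 12 inputs of the KCl experiment, with a median of 38.4%, and 27.9% to 65.1% in the pulldowns, with a median of 47.6%, so that the ranges overlapped. In the DHPG experiment they held 56.8% to 57.6% in the inputs and 74.2% to 80.9% in the pulldowns, and in the eIF4G2 experiment 58.0% to 65.2% and 85.1% to 89.9%. The inputs and pulldowns of the last 2 experiments did not overlap. The 5S copy alone held 67.1% to 76.1% of the counts in DHPG pulldowns and 75.7% to 85.2% in eIF4G2 pulldowns. Gm15725 and the rest of the 3′ UTR of Lrrc58 held 21.7% to 25.3% of the counts in DHPG inputs and 4.59% to 6.81% in the pulldowns, as shares of a total in which the 5S copy took a larger part. Set against its own CDS, the 3′ UTR share of Lrrc58 was higher in the pulldown in 12 of 12 pairs of the KCl, 3 of 3 of the DHPG and 4 of 4 of the eIF4G2 experiment.

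**Figure D1:**
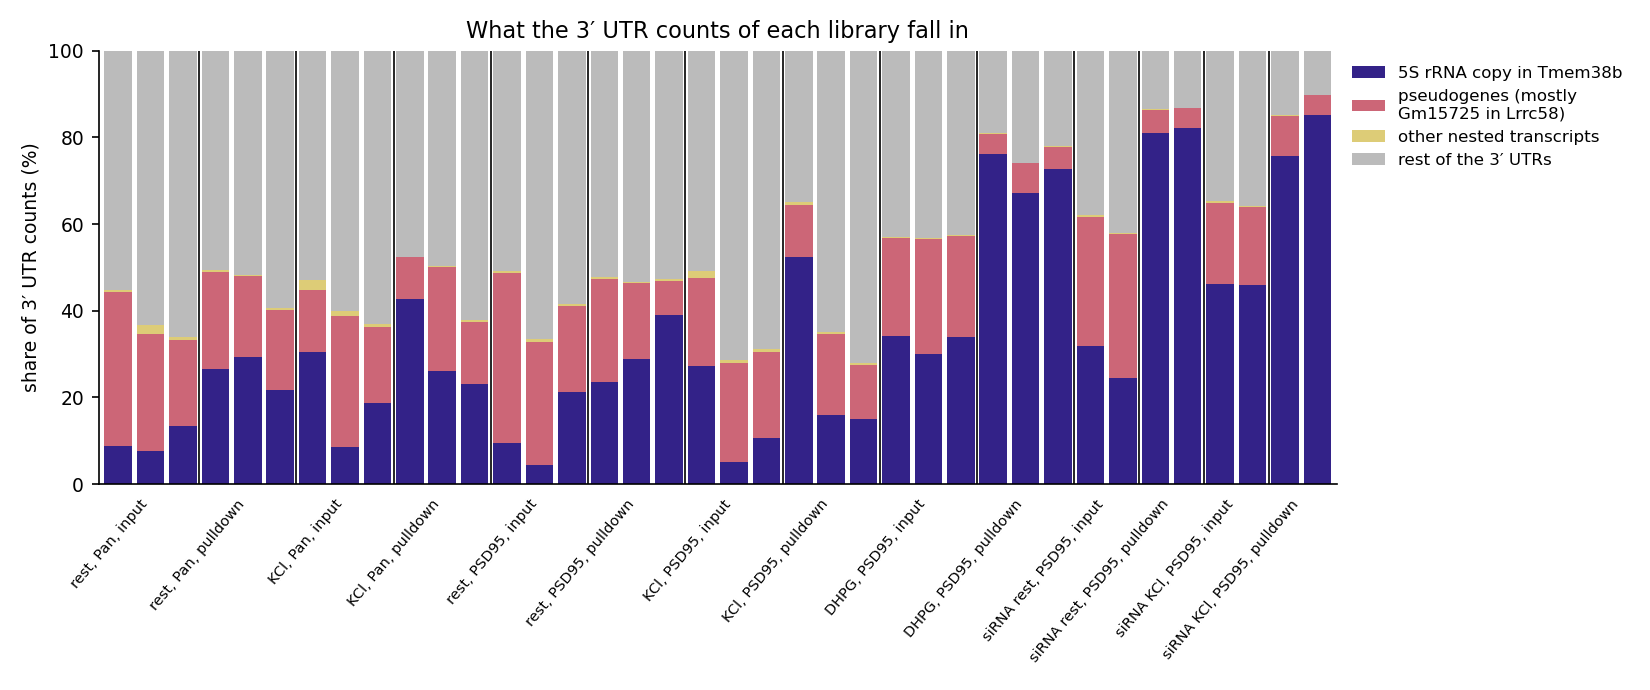
Composition of the 3′ UTR counts of the 38 libraries, 1 bar per library, as the percent of counts in the 5S rRNA copy of Tmem38b, in pseudogenes, in other nested transcripts and in the rest of the 3′ UTRs. The 5S copy holds at least 67.1% in every DHPG and eIF4G2 pulldown and at most 52.4% in the KCl experiment.

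The 3′ UTR share, defined as 3′ UTR counts in percent of 3′ UTR and CDS counts, was near 1% or less in the inputs of the KCl experiment. It was 0.704% ± 0.100 (SD, n = 3) for resting Pan-TurboID, 0.751% ± 0.144 for resting TurboID-PSD95, 0.906% ± 0.313 for depolarized Pan-TurboID and 0.732% ± 0.0492 for depolarized TurboID-PSD95. Their pulldowns held 0.956% ± 0.0747, 1.36% ± 0.592, 1.43% ± 0.815 and 1.19% ± 0.295 in the same order. Every pulldown lay above its own input. Inputs and pulldowns overlapped for depolarized Pan-TurboID and for none of the other groups. Without the nested transcripts they overlapped in all 4 groups, and the inputs held 0.438% to 0.525% on average and the pulldowns 0.516% to 0.747%. The high libraries were replicate 1 of the depolarized Pan-TurboID pulldown with 2.36% and replicate 3 of the resting TurboID-PSD95 pulldown with 2.04%, and their CDS counts made up only 13.6% and 24.4% of their totals.

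In the other 2 experiments the nested transcripts held more of the 3′ UTR counts. DHPG inputs held 1.33% ± 0.0906 (SD, n = 3) and DHPG pulldowns 3.68% ± 0.665. In eIF4G2-depleted neurons the resting inputs held 1.05% ± 0.0884 (n = 2) and the pulldowns 4.42% ± 0.209, and the depolarized ones held 1.37% ± 0.0519 and 5.13% ± 1.75. Without the nested transcripts the DHPG values came to 0.572% ± 0.0375 and 0.831% ± 0.0387, the eIF4G2-depleted inputs to 0.419% ± 0.00438 at rest and 0.486% ± 0.0281 after KCl, and the pulldowns of eIF4G2-depleted neurons to 0.611% ± 0.0182 at rest and 0.641% ± 0.0613 after KCl.

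**Figure D2:**
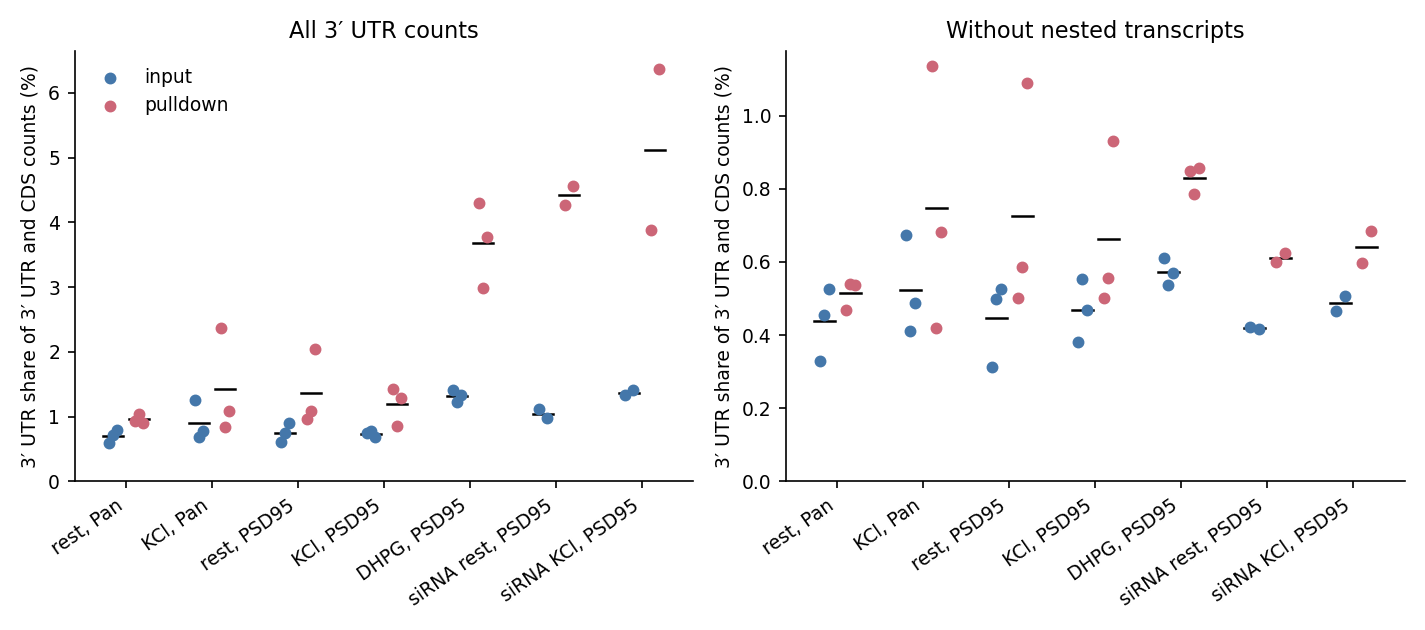
3′ UTR share of each library in percent, with all counts at left and without nested transcripts at right, for 7 pairs of input (blue) and pulldown (red) groups. Points are libraries and bars are means; without nested transcripts the pulldown means lie between 0.516% and 0.831% and the input means between 0.419% and 0.572%.

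Whether the pulldown held relatively more 3′ UTR footprints than its input was asked by the log2 ratio of summed 3′ UTR to summed CDS counts, pair by pair. In the KCl experiment the ratio was higher in the pulldown in 12 of 12 pairs, by 0.63 (SD of the pair differences 0.33, two-sided exact permutation test within pairs, p = 0.000488, the smallest this design can give). The 12 pairs come from 3 replicate numbers, whose samples were processed together, and the test takes the pairs as independent. With the 4 pairs of a number averaged, all 3 means were above 0, and the exact test on 3 values gave its smallest p of 0.25, also for the other comparisons of 12 pairs given here with a p. Without the nested transcripts the difference was 0.45 (SD 0.36), again in 12 of 12 pairs with the same p. It was 0.40 to 0.76 in the pairs of replicate 1, 0.011 to 0.25 in replicate 2 and 0.028 to 1.05 in replicate 3. Without the 20 genes with the most counts it was 0.40, in 11 of 12 pairs. A median over the 21 genes with enough counts in all 38 libraries was lower in the pulldown in every pair of resting Pan-TurboID. It was higher in every other pair of the KCl experiment. In the DHPG experiment the ratio was higher by 1.5 (SD 0.18, 3 of 3 pairs) with all counts and by 0.54 (SD 0.058, 3 of 3) without the nested transcripts. The exact test on 3 pairs cannot give a p below 0.25, which it gave. In eIF4G2-depleted neurons the values were 2.02 (SD 0.32, 4 of 4 pairs) and 0.47 (SD 0.098, 4 of 4), at the smallest exact p of 0.125.

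The 3′ UTRs moved against the 5′ UTRs of the same genes. In 18779 genes with both, the log2 ratio of 5′ UTR to CDS counts was lower in the pulldown in 12 of 12 pairs of the KCl experiment, by −1.54 (SD 0.44, exact permutation test, p = 0.000488), and it was −1.76 in the DHPG and −1.75 in the eIF4G2 experiment, lower in all of their pairs. The 3′ UTR ratio without nested transcripts was 0.46, 0.55 and 0.48 in those genes. The difference between the 2 was 2.00 (SD 0.69, 12 of 12 pairs), 2.31 and 2.23. The 2 are unlike measures, and nested transcripts were set aside in the 3′ UTRs only. Counts were placed at the 5′ ends of reads, so that ribosomes on the first codons can be counted in the 5′ UTR. The 5′ UTR counts made up 4.61% to 27.4% of 5′ UTR and CDS counts over the libraries.

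Genes with long 3′ UTRs held more of their counts there, but, from 200 nt upward, fewer per nucleotide. In the inputs of the KCl experiment, without nested transcripts, the share of the 3366 genes with 3′ UTRs under 200 nt was 0.0690% in the lowest, 0.101% in the median and 0.174% in the highest library. In the 1281 genes with at least 4000 nt it was 0.513%, 0.839% and 1.2%, with no overlap between the 2 classes. Per length, 3′ UTR density in percent of CDS density fell from 200 nt upward, with medians over all libraries of 1.27 under 200 nt, 1.59 from 200 to 500 nt (upper bounds not included), 0.859 from 500 to 1000, 0.686 from 1000 to 2000, 0.479 from 2000 to 4000 and 0.305 at 4000 nt or more. The stop codon divided the genes less, since the median share over libraries was 0.501% for TAA, 0.541% for TAG and 0.562% for TGA.

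In the KCl and DHPG experiments the excess in pulldowns lay in the longer 3′ UTRs. In the KCl experiment the pulldown minus input difference of the log2 ratio was −0.07 ± 0.27 (SD over 12 pairs) under 200 nt, higher in 5 of 12 pairs, and −0.29 ± 0.21 from 200 to 500 nt, higher in 1 of 12. It was 0.15 ± 0.28 from 500 to 1000 nt (9 of 12), 0.39 ± 0.37 from 1000 to 2000 nt (10 of 12), 0.52 ± 0.40 from 2000 to 4000 nt (12 of 12) and 0.67 ± 0.39 at 4000 nt or more (12 of 12). A slope on log2 3′ UTR length was fitted to the log2 ratio of 3′ UTR counts per kb to CDS counts per kb, with nested transcripts kept. Its 562 genes had a mean of at least 10 counts in the 3′ UTR, which a short 3′ UTR reaches only at a higher density. The slope was negative in all 24 libraries of the KCl experiment. It was −0.68 ± 0.089 (SD, n = 12) in inputs and −0.49 ± 0.14 in pulldowns, so that it was shallower in the pulldown in 12 of 12 pairs, by 0.18 per doubling of length (exact permutation test, p = 0.000488, and 0.00269 adjusted over the 11 library-level tests). In the DHPG experiment the difference was −0.06 from 200 to 500 nt and 0.64 at 4000 nt or more. In the eIF4G2 experiment the length classes were not ordered this way, since the difference was 0.35 under 200 nt (3 of 4 pairs higher), −0.13 from 200 to 500 nt (1 of 4), and 0.40, 0.47, 0.43 and 0.41 in the longer classes (4 of 4 each).

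**Figure D3:**
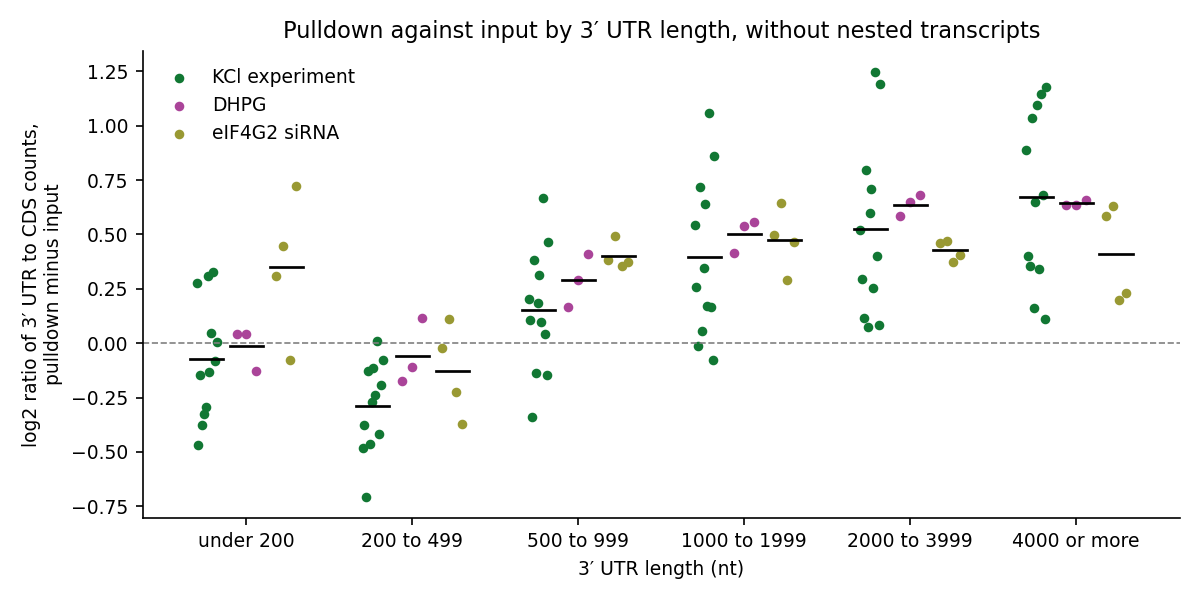
Pulldown minus input difference of the log2 ratio of 3′ UTR to CDS counts by 3′ UTR length in nt, without nested transcripts; points are pairs of the KCl (12), DHPG (3) and eIF4G2 (4) experiments and bars are means. In the KCl experiment the mean is −0.29 from 200 to 500 nt and 0.67 at 4000 nt or more.

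Few genes had large shares. Snhg11, a small nucleolar RNA host gene with a short annotated CDS, held 28.3% to 67.9% of its counts in the 3′ UTR over the KCl inputs, with a median of 54.1%, and 54.9% over the pulldowns together. Smim10l2a held 26.8% to 54.5% (median 45.7%), Fam19a5, which encodes a secreted neurokine, 18.8% to 56.6% (median 41.3%), and Ubl3, a membrane-anchored ubiquitin-like protein, 20.0% to 57.5% (median 43.1%). Over the pulldowns together the last 3 held 53.0%, 40.6% and 27.9%. For 227 genes at least 200 counts in the 3′ UTR and 20 in the CDS were found over the 12 inputs. Outside the nested transcripts, the most counts in the inputs belonged to Tmsb4x, the actin-sequestering thymosin β4, with 3482 counts and a share of 1.53% to 4.82% (median 3.07%). The axonal kinesin Kif1a had 2004 counts at 0.321% to 2.15% (median 1.11%), and its summed share was 0.959% in inputs and 0.940% in pulldowns.

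Gene by gene, the ratio of 3′ UTR to CDS counts was tested in 1319 genes of the KCl experiment by the quasi-likelihood test of edgeR (Benjamini-Hochberg FDR of 0.05), scaled to CDS counts. Here and in the other experiments the model had no term for the pair or the replicate number. Its adjusted p-values therefore take the libraries as independent. The ratio was higher in pulldowns in 232 genes (17.6% of those tested) and lower in 14 (1.06%), with a median log2 fold change of 0.65 over all tested genes. A gene was tested if its 3′ UTR reached the minimum count in enough libraries of either kind, so that genes with few counts in inputs entered through the pulldowns in which they were high. Of the 232 genes, 144 met the minimum in the pulldowns alone, and of the 636 genes that met it in the inputs 82 were higher (12.9%). Of the 14 lower genes, 5 met it in the inputs alone, where they were high, Vmp1 among them. Counts over lists below hold genes of both kinds. In 185 of the 232 the 3′ UTR counts themselves rose, and in 160 the CDS counts fell. Of all genes tested for each kind of count, 3′ UTR counts rose in 25.5% (30.1% changed in either direction) and CDS counts fell in 28.7% (54.6%), and CDS counts fell in 556 of the 1319 genes of the ratio test. The median log2 fold changes of the 232 were 1.86 for 3′ UTR counts, −0.48 for CDS counts and 2.19 for the ratio, against 0.69 for 3′ UTR and −0.13 for CDS counts over all genes tested. The 232 genes were chosen by this ratio in the same libraries. Their higher 3′ UTR counts and lower CDS counts follow in part from that choice and are a description. The median 3′ UTR was 2855.5 nt in these genes, 1079.5 nt in those that were lower and 2284 nt over all tested. The split of the calls depended on the scaling. With 3′ UTR counts scaled to their own library totals, the median of all genes moved from 0.65 to 0.23 and 148 genes were higher and 43 lower. The count also rested on replicate 3, without whose 8 libraries 10 genes passed, 9 of them among the 246. Without replicate 1 it was 133. All of the 246 genes that could be tested without replicate 3 kept their sign.

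The gene with the smallest p among those higher was Srsf2, a splicing factor of the SR family, whose 3′ UTR lies on chromosome 11 (mm10 116849901 to 116852027, minus strand). Its 3′ UTR held 11 counts in 4 of the 12 inputs and 145 in 11 of the pulldowns, where the share had a median of 1.37% and reached 4.22%. The share was higher in 11 of 12 pairs and 0 in both libraries of the other. Zfp207, a spindle-assembly protein that regulates splicing, had 13 counts in the inputs and 136 in the pulldowns, with shares of 0% to 0.264% and 0.454% to 4.63% that did not overlap. Both genes met the minimum count in the pulldowns alone, and their fitted fold changes rest on about 1 count per input and are left out.

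Rnf11, a ubiquitin ligase adaptor with a 3′ UTR of 3153 nt on chromosome 4 (109451098 to 109454250, minus strand), held 0%, 3.20% and 21.3% of its counts in the 3′ UTR in the lowest, median and highest input. In the pulldowns it held 4.88%, 37.9% and 63.4%, so that the groups overlapped while 12 of 12 pairs were higher, at a log2 difference of 3.97 (SE 0.64, edgeR adjusted p = 0.000138). Its CDS counts fell by 1.16 on the log2 scale and its 3′ UTR counts rose by 2.62. Taf1d, a subunit of the RNA polymerase I factor SL1, went from a median share of 8.96% to 43.7%, with 92 counts over the inputs, which did not meet the minimum, and 556 over the pulldowns. Taf1d contains an annotated snoRNA, and without it the summed share was 3.25% in inputs and 20.3% in pulldowns. Actb, whose 3′ UTR holds the zipcode that localizes β-actin mRNA, was lower in level, with a median of 0.0355% in inputs and 0.126% in pulldowns, higher in 12 of 12 pairs (2.37, SE 0.47, edgeR adjusted p = 0.000971). Reads of Actb can be exchanged with its copy in Lrrc58.

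Among the 14 genes with a lower ratio, Vmp1 stood first, an autophagy protein of the endoplasmic reticulum. Its 3′ UTR held 1880 counts in the inputs and 12 in the pulldowns, with shares of 1.77%, 18.2% and 76.9% (lowest, median, highest) against 0%, 0% and 0.613%, and no overlap. It met the minimum count in the inputs alone, and its fitted fold change is left out. Of these counts, 1878 in inputs and 5 in pulldowns lay within the 92-nt hairpin gene Mir21a, whose mature strands are printed above. Without the hairpin the summed share of Vmp1 was 0.0364% in inputs and 0.0639% in pulldowns. The same locus held 31, 1 and 7 counts in the DHPG inputs and 246, 0, 57 and 1 in the eIF4G2 inputs, and at most 6 in any of their pulldowns.

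Sppl3, an intramembrane protease, had shares of 5.88%, 14.4% and 21.9% in inputs and 0%, 2.82% and 14.3% in pulldowns, lower in 12 of 12 pairs (−2.31, SE 0.56, edgeR adjusted p = 0.00492). Npas4, an activity-induced transcription factor, had medians of 5.26% and 1.62% (−1.62, SE 0.47), and Mpped1, a metallophosphoesterase, 8.96% and 3.57% (−1.59, SE 0.46), both lower in 12 of 12 pairs. In AC124502.3 the 3′ UTR contains an exon of Brms1, so that its counts (−1.87, SE 0.44) may belong to either gene. The remaining genes were Lrrn2, Hs3st2, Vrk3, Vps51, Pld3, Extl3, Atp2b2, Slc38a1 and Atp1b1, which are named here to complete the list. Of the 14 lower genes, 5 met the minimum count in the inputs alone, and which did so besides Vmp1 is not given here. The fold changes and the adjusted p of Sppl3, Npas4, Mpped1 and AC124502.3 are therefore a description and no support for a difference.

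**Figure D4:**
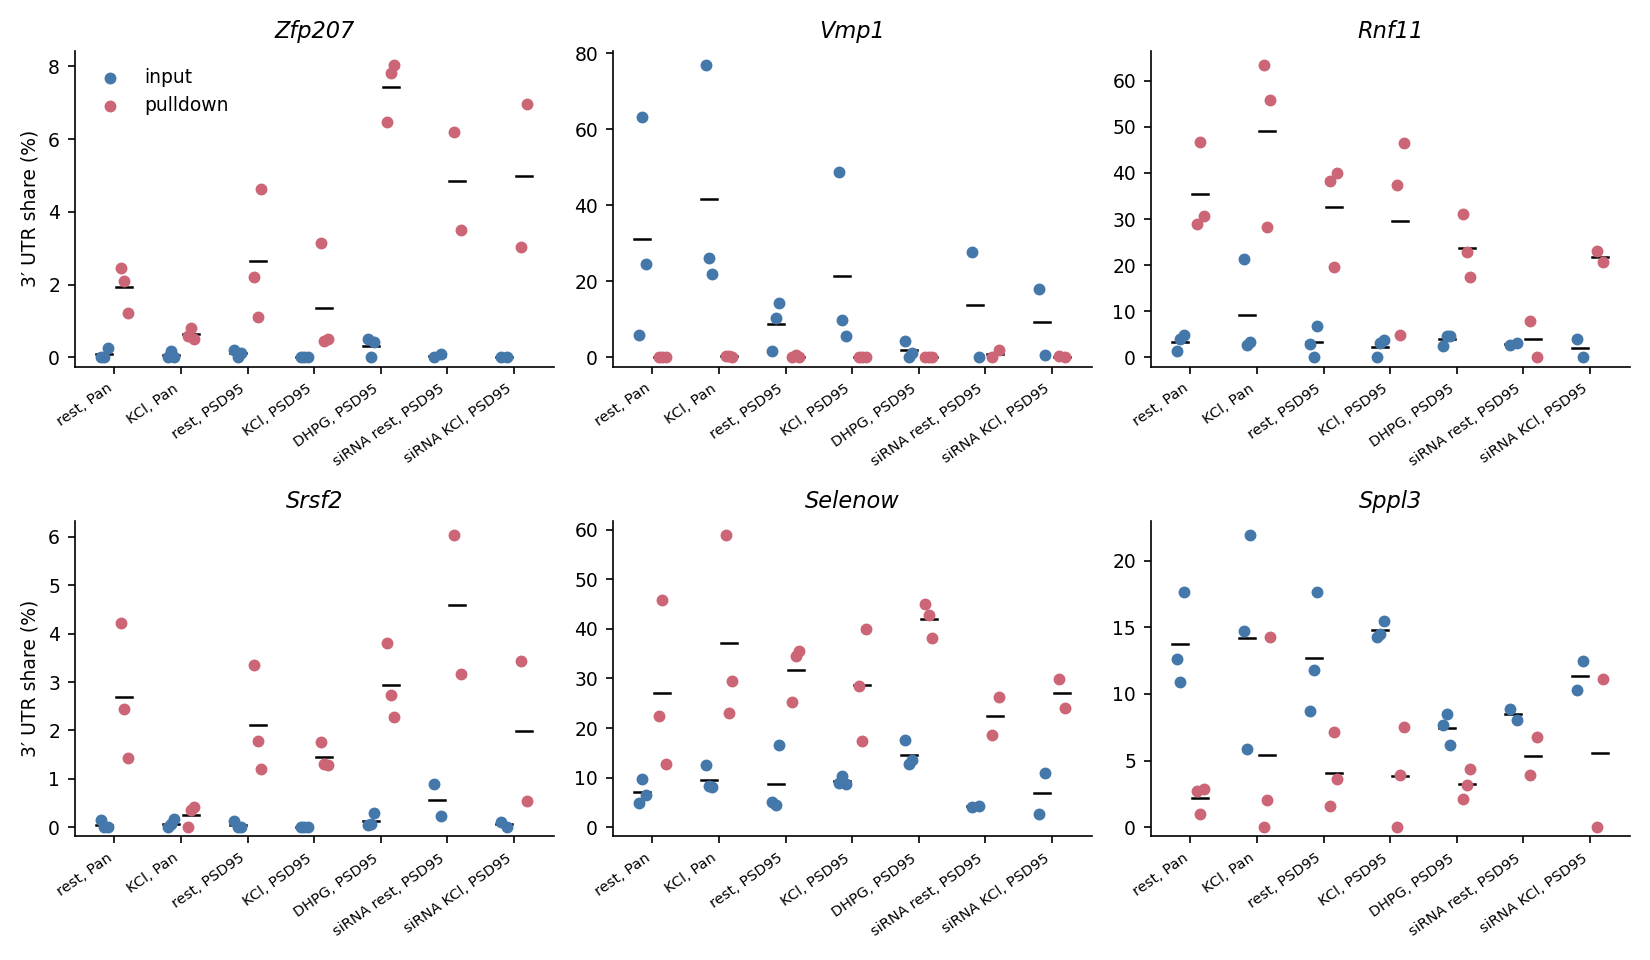
3′ UTR share in percent of 6 genes in each library, inputs in blue and pulldowns in red, with bars at the group means. The shares of Zfp207, Rnf11, Srsf2 and Selenow are higher in most pulldowns and those of Vmp1 and Sppl3 in most inputs.

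In the DHPG experiment 1260 genes could be tested and the ratio was higher in pulldowns in 683 (54.2%) and lower in 63 (5.0%), 59.2% together, with a median of 0.92. Of the 683, 313 met the minimum count in the pulldowns alone, and of the 641 genes that met it in the inputs 319 were higher (49.8%). Of the 63 lower genes, 21 met it in the inputs alone, where they were high. Which of the lower genes named below did so is not given here, so that their fold changes are a description. With 3′ UTR counts scaled to their own totals the split was 348 higher and 177 lower and the median 0.19, and 725 of the 746 genes kept their sign. Leaving out a replicate gave 648 to 696 genes. The microtubule protein tau, Mapt, went from 0.565% to 0.778% in inputs to 6.42% to 7.61% in pulldowns (3.47, SE 0.20, edgeR adjusted p = 4.1e-24), the 14-3-3 protein Ywhag from 0.756% to 1.22% to 7.39% to 10.4% (3.11), the syndecan Sdc3 from 2.61% to 3.38% to 17.3% to 23.4% (2.98) and the mTORC1 inhibitor Ddit4 from 1.31% to 2.12% to 11.5% to 14.0% (3.06). In none of these 4 genes did the groups overlap. Lower ratios were found in Gm21972 (−3.93), whose 3′ UTR contains a 64-nt exon of Armc9 so that its counts may belong to either gene, in the sodium pump subunit Atp1b1 (−1.62; 0.574% to 0.832% in inputs, 0.170% to 0.281% in pulldowns), in Tubb2a (−2.55), one of a family of near-identical β-tubulin genes, in AC124502.3 (−1.73) and in Enc1 (−1.12).

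In eIF4G2-depleted neurons 553 genes could be tested over both states, and 140 were higher in pulldowns (25.3%) and 12 lower (2.17%), with a median of 0.90. Of the 140, 106 met the minimum count in the pulldowns alone, and of the 244 genes that met it in the inputs 30 were higher (12.3%). Of the 12 lower genes, 7 met it in the inputs alone, where they were high. Own scaling gave 101 and 19 and a median of 0.59. Tmem38b, whose counts are those of the 5S copy, passed with a log2 fold change of 2.81 and is no measure of its mRNA. Fam168a went from shares of 0.402% to 2.17% in inputs to 13% to 20.1% in pulldowns (3.94), and the neuronal kinesin Kif5c from 0.325% to 0.392% to 1.34% to 9.63% (3.42), neither with overlap. Whether Fam168a and Kif5c met the minimum count in the inputs is not given here. Their fold changes are therefore a description and no support for a difference. Zfp207 had 1 count over the 4 inputs and 53 over the pulldowns, and Hnrnpa2b1, a protein that binds mRNAs for transport, 3 and 48, and both passed. Their fitted fold changes rest on those few counts and are left out.

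Among the lower genes, Map1b, a dendritic and axonal microtubule protein, went from 0.141% to 0.185% to 0.0713% to 0.106% (−0.85), and Tle3 (−2.34), Dip2b (−3.85) and Tnrc18 (−2.35) fell as well. Which of the 12 lower genes met the minimum count in the inputs alone is not given here. The fold changes of Tle3, Dip2b and Tnrc18 are therefore given as a description and are no support for a difference. Prrc2b, a translation factor that binds eIF4G2, had a lower ratio in depleted neurons (−2.09, with 0.544% to 1.17% in inputs and 0.125% to 0.335% in pulldowns), while its CDS counts were 9320 in inputs and 47374 in pulldowns. In the KCl experiment its ratio was higher in pulldowns (1.39, SE 0.46), with medians of 0.57% and 1.43%, and the DHPG shares were 0.496% to 0.894% and 1.32% to 1.83%.

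The 3 experiments share no libraries, so that their calls could be set beside each other. Of 983 genes tested in both the KCl and the DHPG experiment, 177 were higher in the first, 563 in the second and 170 in both, which is 96.0% of the former and 30.2% of the latter, against 57.3% of the 983 that were higher in the second, and none had opposite calls. Among the 470 of them that met the minimum count in the inputs of both, 63 and 240 were higher and 61 in both, 96.8% of the former, against 51.1% of the 470 in the second. In the lower direction 10 and 47 passed and 6 were shared (60.0% and 12.8%), namely AC124502.3, Atp1b1, Lrrn2, Mpped1, Sppl3 and Vrk3. Over all genes tested in each experiment, 1.06% were lower in the KCl and 5.0% in the DHPG experiment. The lower calls were not split by the minimum count, which 5 of all 14 and 21 of all 63 met in the inputs alone. This overlap is therefore a description. Of 489 genes tested in both the KCl and the eIF4G2 experiment, 91 and 121 were higher and 64 in both (70.3% and 52.9%), with Prrc2b opposite. Of all 489, 24.7% were higher in the eIF4G2 and 18.6% in the KCl experiment. Among the 227 that met the minimum in the inputs of both, 23 and 29 were higher and 16 in both (69.6% and 55.2%). Of all 227, 12.8% were higher in the eIF4G2 and 10.1% in the KCl experiment. Of 500 tested in the DHPG and the eIF4G2 experiment, 272 and 117 were higher and 102 in both (37.5% and 87.2%), with Fbxw11 and Prrc2b opposite. Of all 500, 23.4% were higher in the eIF4G2 and 54.4% in the DHPG experiment. Among the 226 that met the minimum in the inputs of both, 103 and 26 were higher and 25 in both (24.3% and 96.2%). Of all 226, 11.5% were higher in the eIF4G2 and 45.6% in the DHPG experiment. Of 465 genes tested in all 3, 58 were higher in every one, 15 of them among the 213 genes that met the minimum in the inputs of all 3, and none was lower in every one.

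**Figure D5:**
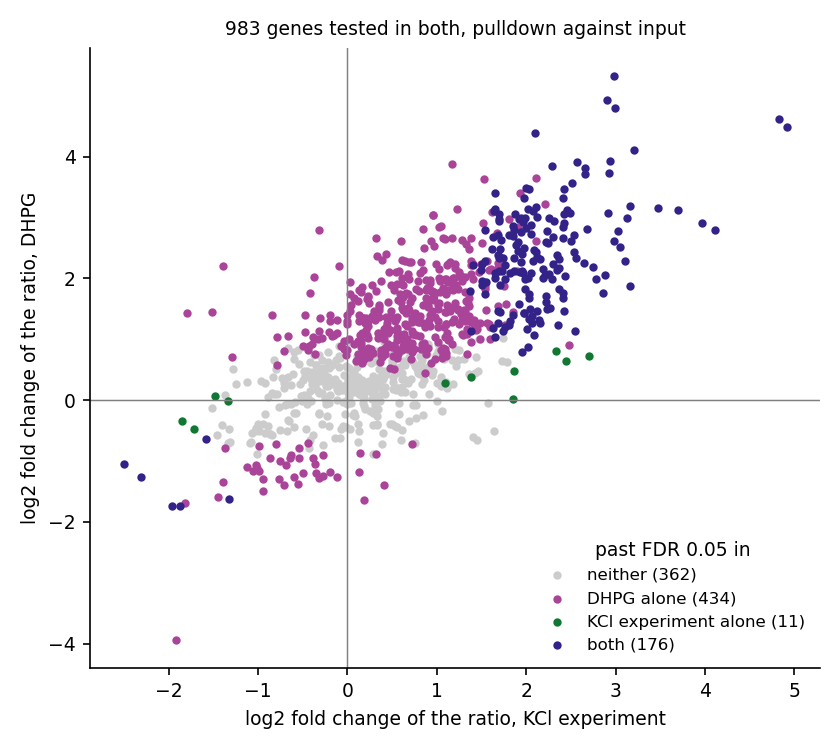
log2 fold change of the 3′ UTR to CDS ratio, pulldown against input, in the KCl experiment (x axis) and the DHPG experiment (y axis) for the 983 genes tested in both. Colours mark genes past an FDR of 0.05 in both (176), in the KCl experiment alone (11), in the DHPG experiment alone (434) and in neither (362).

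No effect of KCl depolarization on the ratio was detected over whole libraries. Over the 6 pairs of input groups the depolarized libraries differed by 0.15 on the log2 scale, higher in 3 of 6 (SD 0.51, exact permutation test, p = 0.442), and without replicate 1 the difference was −0.12. Over the pulldowns it was 0.15 (3 of 6, exact permutation test, p = 0.60), and −0.27 without replicate 1. Without nested transcripts the differences were 0.17 and 0.16. As a median over the 21 genes with enough counts in all 38 libraries, the ratio was lower in depolarized inputs. The means were −5.46 against −5.00 for Pan-TurboID and −5.74 against −5.30 for TurboID-PSD95. No gene passed in the inputs by edgeR's quasi-likelihood test (93 at an unadjusted p under 0.05; 5 by DESeq2), although 15.4% of 11809 genes passed for CDS counts, 751 higher (6.36%) and 1062 lower (8.99%). In the pulldowns 1 gene passed (0.0758%; 63 at an unadjusted p under 0.05), Dusp1, a MAP kinase phosphatase of the immediate early genes, which is named although 1 of its pairs did not follow. Its shares were 0%, 0.971%, 1.52%, 1.56%, 1.85% and 2.40% in resting and 0.056% to 0.210% in depolarized pulldowns, which overlapped only through the resting library at 0 (−3.51, edgeR adjusted p = 0.033), and it passed in no fit that left out a replicate.

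Apba1, a presynaptic adaptor protein also known as Mint1, had the smallest p in the inputs (3.53, SE 0.78, edgeR adjusted p = 0.106, higher in 6 of 6 pairs). Its share was 0.199% to 0.626% in resting and 1.93% to 13.2% in depolarized inputs, without overlap. Its 3′ UTR counts were 4 to 13 and 6 to 20, while CDS counts went from 1300 to 4005 at rest to 93 to 609 after depolarization, a log2 fold change of −2.51 (edgeR adjusted p = 2.57e-11). In eIF4G2-depleted neurons, whose libraries are separate, depolarization was tested over inputs and pulldowns together, and Apba1 passed (2.76, SE 0.55, edgeR adjusted p = 0.0286), with shares of 0.698% to 0.838% in resting inputs, 5.61% to 8.25% in depolarized inputs, 1.81% to 2.02% in resting pulldowns and 7.92% to 9.17% in depolarized pulldowns. Ski, a repressor of SMAD signalling, passed there as well (2.73, SE 0.53), with 1.31% and 2.51% against 9.48% and 7.45% in inputs and 1.93% and 1.03% against 13% and 11.7% in pulldowns. In the KCl experiment the CDS counts of Ski fell by 1.33 on the log2 scale and its input shares overlapped, at 0.617% to 2.93% at rest and 0% to 9.90% after depolarization. With Tmem38b (1.29) these were the only 3 of 553 genes (0.542%) that passed, and none passed with the replicate number as a block or with own 3′ UTR scaling. The test took input and pulldown of 1 fraction as independent, with 2 samples per state, so that its adjusted p-values overstate the replication. Over whole libraries the depolarized eIF4G2-depleted inputs differed from the resting ones by 0.39 and the pulldowns by 0.18 (0.21 and 0.065 without nested transcripts), where the exact test on 2 against 2 libraries cannot give a p below 0.333.

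No difference between the ligases was detected. Pulldown over input was 0.74 ± 0.37 on the log2 scale for TurboID-PSD95 and 0.52 ± 0.26 for Pan-TurboID (SD, n = 6 pairs each), a difference of 0.22 (higher in 5 of 6 pairs, exact permutation test, p = 0.24), which was −0.025 without replicate 3. Without nested transcripts it was 0.22 as well, higher in 3 of 6 pairs. No gene passed by edgeR (0 of 1319; 30 at an unadjusted p under 0.05) or by any other tool run. The gene with the smallest p, Lsm4, a subunit of the U6 snRNA ring, had 55 counts over all 12 inputs and 23 over the pulldowns, and its adjusted p was 1. These values do not show that dendritic and whole-neuron pulldowns were alike.

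Of 24 immediate early genes, 19 rose and none fell in CDS counts of inputs after depolarization, against 6.36% and 8.99% of all genes tested. In 3′ UTR counts 3 of the 15 that could be tested passed, against 4 of 1330 genes (0.301%). All 4 reached the minimum count in no resting input and in 3 to 6 of the depolarized inputs, so that they entered the test through the libraries in which they were high, and the count is no support for a difference. Fosb had 0, 0, 0, 0, 1 and 7 counts in resting and 4 to 41 in depolarized inputs, which overlapped. Egr4 had 1 to 8 and 8 to 67, which met at 8, and Arc 0 to 4 and 4 to 24, which met at 4. The fourth gene was Sesn2, an inhibitor of mTORC1. Their ratios did not pass, with log2 fold changes of 1.48 for Fosb, 0.17 for Egr4 and 0.08 for Arc, while CDS counts rose by 4.08, 2.97 and 3.48. Over the 15 genes the median ratio was −0.55, against 0.25 over all tested. With DESeq2 the number of genes with changed 3′ UTR counts was 10, and without 1 replicate 0 to 2.

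Of 20 dendritically localized mRNAs among the members, 11 could be tested in the KCl experiment and 2 had a higher ratio in pulldowns, near the 17.6% over all tested genes, namely Actb and Kif5c (1.65, SE 0.60, edgeR adjusted p = 0.0495). The median over the 11 was 1.18, against 0.65 over all tested. In the DHPG experiment 4 of 12 were higher, below the 54.2% over all tested, namely Actb, Kif5c, the spinophilin gene Ppp1r9b and the neurogranin gene Nrgn, with a median of 0.36 against 0.92. In eIF4G2-depleted neurons 4 of 8 were higher, against 25.3% over all tested, among them the AMPA receptor subunit Gria1 and Arc. Of all genes that met the minimum count in the inputs there, 12.3% were higher. Which of the 4 list members met the minimum count in the inputs is not given here. Their count is therefore no support for a difference. Camk2a, the kinase whose 3′ UTR targets it to dendrites, had medians of 0.49% in inputs and 1.03% in pulldowns and did not pass (0.61, edgeR adjusted p = 0.497). Arc had 1.53% and 3.92%, and in the KCl experiment it did not pass (0.99, edgeR adjusted p = 0.32). The Bdnf 3′ UTR held 20 counts in inputs and 26 in pulldowns. Dlg4, whose CDS and 3′ UTR counts can include those of the TurboID-PSD95 construct, had 2 counts in its 3′ UTR against 7062 in the CDS over the inputs and 18 against 54730 over the pulldowns.

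Genes known for recoding of the stop codon were looked at singly. Of 13 readthrough genes 6 were members, and the summed share of Vegfa was 4.72% over all libraries, of Ago1 1.66%, of Opcml 0.682%, of Mtch2 0.143% (40 counts) and of Ldhb 0.0546% (26 counts), while Vdr had 3 counts in the 3′ UTR and 24 in the CDS. Vegfa, the vascular growth factor with a readthrough form, ranged from 0.279% to 14.5% in KCl inputs (median 3.33%) and from 1.65% to 14.9% in pulldowns (median 5.54%), which overlapped. In the KCl experiment 2 could be tested and none passed, against 17.6% higher over all genes tested. Of 2 in the DHPG experiment 1 passed, the adhesion molecule Opcml (1.69, edgeR adjusted p = 0.000542), against 54.2%. In eIF4G2-depleted neurons the 1 tested, Vegfa, passed (2.45, edgeR adjusted p = 0.0418), against 25.3%. Whether Vegfa met the minimum count in the inputs there is not given here. Counts were not placed by reading frame, so that readthrough and other footprints cannot be told apart.

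Selenoproteins decode UGA through an element in the 3′ UTR, and their summed share was 0.805% in KCl inputs and 2.12% in pulldowns, against 0.717% and 1.05% over all members, which came to 0.436% and 0.575% without nested transcripts. The values of the selenoproteins did not change without them. Selenow, a small redox protein, made up much of this, with 4.39%, 8.45% and 16.5% in the lowest, median and highest input and 12.7%, 29.0% and 59.0% in the pulldowns, higher in 12 of 12 pairs (2.26, SE 0.46, edgeR adjusted p = 0.00109). It passed also in the DHPG experiment (2.07), with 12.7% to 17.6% in inputs and 38.1% to 45.0% in pulldowns, and in eIF4G2-depleted neurons (2.66). In all, 1 of 3 selenoproteins tested passed in the KCl experiment, against 17.6% higher over all genes tested, and 2 of 4 in the DHPG experiment, against 54.2%, the other being Selenot (2.81). Of genes with programmed frameshifting, whose annotated CDS can end early, Oaz1 had 34 counts and a summed share of 0.133% in inputs, and Oaz2, the 1 tested in the KCl experiment, did not pass. Oaz2 had 218 counts in inputs and 106 in pulldowns, with median shares of 8.13% and 5.36%, summed shares of 8.39% and 9.65%, and 6 of 12 pairs higher. In the 54 replication-dependent histone genes, whose mRNAs end in a stem-loop and whose near-identical copies can exchange reads, the summed share was 0.0900% in inputs and 0.118% in pulldowns (0.0699% and 0.0967% without nested transcripts), and none of 3 tested passed.

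The factors that act on stop codons and 3′ UTRs were members too. Of 27 proteins that bind 3′ UTRs, 8 could be tested for the ratio in the KCl experiment and 4 were higher in pulldowns, against 17.6% over all tested, namely Cpeb3, a regulator of poly(A) tail length, Caprin1, a granule protein, Tnrc6b, a partner of Argonaute, and the translational repressor Pum2. All 4 met the minimum count in the pulldowns alone, so that this count and their fold changes are no support for a difference. Caprin1 had 17 counts in inputs and 96 in pulldowns, Tnrc6b 27 and 130, and Pum2 36 and 113. In the DHPG experiment 1 of 2 was higher, Tnrc6b, against 54.2% over all tested. In eIF4G2-depleted neurons 0 of 2 were higher, against 25.3%. Cpeb3 had 20 counts in inputs and 109 in pulldowns, with shares of 0% to 0.740% and 0.452% to 3.42%. The CDS counts of 17 of these proteins fell in pulldowns and those of 4 rose, against 28.7% and 25.9% of all genes. After depolarization the CDS counts of 4 fell in inputs, Pabpc1, Stau2, Ago1 and Caprin1, and those of Cpeb4 rose (0.65, edgeR adjusted p = 0.00043), against 8.99% lower and 6.36% higher over all genes. Pabpc1, which binds the poly(A) tail, fell by 1.83 on the log2 scale (edgeR adjusted p = 1.06e-08). Of 13 factors for termination, recycling and rescue, CDS counts rose for 1 after depolarization, N4bp2 (0.60), and fell for 2, the ribosome rescue factor Hbs1l (−0.97) and Eif2d, which recycles 40S subunits after termination (−1.46), against the same 6.36% and 8.99%. The ratio could be tested in 1 of them, the release factor gene Etf1, and was higher in pulldowns, with 33 counts in inputs and 105 in pulldowns. Of the 13 factors of nonsense-mediated decay 2 could be tested in the KCl experiment and 1 was higher, Casc3, a component of the exon junction complex, with 39 counts in inputs and 96 in pulldowns, against 17.6% over all tested. Etf1 and Casc3 too met the minimum count in the pulldowns alone. None of 2 passed in the DHPG experiment, against 59.2% of all tested in either direction, nor did the 1 tested in eIF4G2-depleted neurons, against 27.5%. Of 8 factors for decoding selenocysteine none had enough 3′ UTR counts, and the CDS counts of Secisbp2 (−0.84) and Sephs1 (−0.59) fell after depolarization while none rose, against 8.99% and 6.36% of all genes.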

How the data were processed

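Footprints were measured in 38 libraries. The authors trimmed and demultiplexed the reads with fastq-multx and Rfastp, aligned them to mm10 with Rsubread and counted 5′ ends of reads of 25 to 100 nt with plastid at an offset of 0, in segments of UCSC known genes. Per the labels, ribosomal RNA was depleted with Ribo-Zero before sequencing, and the file names carry marks for removed ribosomal RNA and duplicates. The counts were deposited as whole numbers for every segment, and replicates were not pooled. The treatment of multiple alignments and the use of strand are not given in the sources used here. Without an offset, footprints are placed upstream of the decoded codon. Removal of duplicates can flatten short regions with many reads.

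Transcripts were matched to GENCODE M21 on GRCm38, and overlaps were found with bedtools 2.31.1 and similar copies with blastn 2.17.0. Libraries were compared by exact two-sided permutation tests on the log2 ratio of summed counts. Genes were tested with edgeR 4.0.16 (quasi-likelihood test with robust estimation, R 4.3.3) in 1 table with a CDS and a 3′ UTR column per library, a term per library, CDS library sizes with TMM, filterByExpr at a minimum count of 10 in both columns and an FDR of 0.05. DESeq2 1.42.0, limma 3.58.1 and edgeR's likelihood ratio test were alternatives. The study processed same-numbered resting and activated samples together, and input and pulldown come from 1 fraction. The latter were compared as pairs over libraries. Deviations of same-numbered resting and depolarized libraries correlated at −0.19 to 0.20 for CDS counts and −0.08 to 0.07 for the ratio, and this comparison was not blocked in the main test. On simulated data for the KCl experiment (944 genes), 48.5% of 2-fold and 98.7% of 4-fold changes were recovered. The simulated 3′ UTR counts were drawn independently for each library, without replicate structure, pairs or a shift of all genes. These values are therefore no measure of what can be detected in the real libraries.

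Named are, per direction, the 5 genes past the FDR with the lowest p in which all same-numbered pairs followed (with a pseudocount of 0.5), genes with the largest shares and the most 3′ UTR counts, list members and a few genes known for their 3′ UTRs. Not every gene given by this rule is named. The members and lists were chosen with earlier results of these data known. The labels place DHPG inputs and siRNA libraries in the cytosol in 1 field and give the PSD95 virus in another, and the virus was used. Where nothing states separate cultures, p-values measure the spread between the samples at hand.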

Additional observations from a re-analysis of the deposited data

How the results depend on the processing

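Depth limits the gene-level tests, since 1319 of 19630 genes had enough 3′ UTR counts in the KCl experiment, and a p that missed the threshold does not show equality. Counts for sparse genes rest on few molecules. The nested-transcript alternative, the median over genes measured in all libraries and the averaging by replicate number were chosen after the data were seen. Of 396 values of named genes under alternatives, 353 stayed on their side of the threshold, 40 no longer passed, 3 newly passed and 0 reversed. Causes were not tested.

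For genes with a changed ratio in the KCl experiment the likelihood ratio test gave 386, no filter 85 and the replicate block 275, and leaving out a replicate 10 to 219, with 10 without replicate 3 and 133 without replicate 1. In eIF4G2-depleted neurons no filter gave 3, and leaving out a replicate left no residual degrees of freedom there. For depolarized inputs own scaling gave 2, DESeq2 5 and the likelihood ratio test 8; for depolarized pulldowns own scaling gave 2, DESeq2 3, the likelihood ratio test 3, and limma, no filter and each fit without a replicate 0. For the depolarized eIF4G2-depleted neurons DESeq2 gave 5, the likelihood ratio test 40, and own scaling, limma, no filter and the replicate block 0. For 3′ UTR counts after depolarization DESeq2 gave 10, the likelihood ratio test 12 and fits without a replicate 0 to 2 (2 without replicate 1, 2 without replicate 2 and 0 without replicate 3). For 3′ UTR counts in pulldowns no filter gave 247 and fits without a replicate 70 to 337, with 70 without replicate 3. For CDS counts after depolarization fits without a replicate gave 485 to 1914, with 485 without replicate 3 and 803 without replicate 2.

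Over libraries, the eIF4G2 pulldown difference of 2.02 passed without the pairs as a replicate block (exact permutation test, p = 0.0286). The depolarization difference ranged from −0.12 to 0.34 in inputs and −0.27 to 0.39 in pulldowns when a replicate was left out, both negative without replicate 1, and was −0.057 in pulldowns as a median over the 104 genes with enough counts in those libraries. As a median over the 21 genes with enough counts in all 38 libraries it was −0.45 in inputs (exact permutation test, p = 0.0584), and the KCl pulldown difference was 0.45, higher in 9 of 12 pairs and lower in all 3 of resting Pan-TurboID, against 0.82 and 12 of 12 over the 34 genes with enough counts in the KCl libraries. The ligase difference of 0.22 ranged from −0.025 to 0.37 when a replicate was left out, the former without replicate 3, and was 0.52 as a median over the 21 genes (5 of 6, exact permutation test, p = 0.143). With pairs averaged by replicate number, the KCl pulldown differences of the ratio (0.63) and the length slope (0.18) no longer passed (exact permutation test, p = 0.25, the smallest possible). The depolarized minus resting difference of the length slope was 0.07 in inputs (439 genes) and 0.11 in pulldowns (690 genes), ranged from 0.031 to 0.14 and from 0.045 to 0.19, and passed without replicate 2 (0.14 and 0.19). The pulldown difference without a replicate was 0.55 to 0.75 in the KCl, 1.42 to 1.59 in the DHPG and 1.79 to 2.26 in the eIF4G2 experiment.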

Other observations

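Rnf225, a ubiquitin ligase gene with an annotated U-type snRNA copy (Gm26325) in its 3′ UTR, had 134 counts in that copy over the KCl inputs and 1439 over the pulldowns. It was chosen after its values were seen, and reads of other copies cannot be told apart from it.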
